A study of Homo sapiens with 4 samples.

Results

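The genes described here are 10 keratin and plakin genes of prostate luminal and basal epithelium, matched by symbol among 60308 gene identifiers in the count tables. They are the luminal keratin genes KRT8 and KRT18 (both on chromosome 12) and KRT19 (chromosome 17), the basal keratin genes KRT5 (chromosome 12) and KRT15 (chromosome 17), and the plakin genes DST and DSP (chromosome 6), PLEC (chromosome 8), PPL (chromosome 16) and EVPL (chromosome 17). Of the 10, 8 had enough reads to be tested and 2, KRT5 and KRT15, did not. VCaP, a human prostate cancer cell line, received 1 of 2 siRNAs in DMEM with 10% FBS before total RNA was sequenced: a non-targeting control, labelled siNTC, or siZBTB7A, aimed at the zinc finger transcriptional repressor ZBTB7A. Both groups are transfections of 1 cell line, and the labels give neither the time after transfection nor whether replicates came from separate cultures. The design text of the series says that the RNA-seq was done to find genes regulated by ZBTB7A.

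Each group had 2 count tables. Over all genes with at least 20 summed reads, the 2 tables of a group differed by no more than read sampling (chi-square per degree of freedom 0.993 in siNTC and 0.995 in siZBTB7A, against 3.50 to 3.64 between groups). They were therefore counted as 1 library per group, so no difference below has a replicate check. A gene is called lower or higher where edgeR's quasi-likelihood test gave a Benjamini-Hochberg adjusted p under 0.05, and such a call compares the 2 libraries, not the 2 conditions. The tables held between 5556061 and 5927656 reads in genes. CPM is the read count scaled to a common depth of TMM-adjusted gene reads, and intervals in parentheses are exact 95% intervals that cover counting error only. ZBTB7A itself had 90 and 115 reads under siNTC and 70 and 74 under siZBTB7A, a fold of 0.743 (0.596 to 0.924) that did not pass the test (adjusted p = 0.0969). A lower ZBTB7A level was therefore not called in the library labelled siZBTB7A.

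Keratins are intermediate filament proteins that assemble only as pairs of a type I and a type II chain. KRT8 (type II) and KRT18 (type I) form the pair of simple and luminal epithelium, KRT19 is a further type I chain of simple epithelium, and KRT5 (type II) and KRT15 (type I) belong to basal cells. Plakins are very large linker proteins. Desmoplakin (DSP) anchors filaments to desmosomes, plectin (PLEC) and dystonin (DST) tie them to hemidesmosomes, microtubules or actin, and periplakin (PPL) and envoplakin (EVPL) serve desmosomes and the cornified envelope. In the prostate, loss of basal keratins and retention of KRT8 and KRT18 mark the luminal character of most adenocarcinomas.

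DSP and DST are the members that passed the test, and their annotated start regions are shown because the targeted protein binds DNA. The windows are those of RefSeq on GRCh38.p14, each with 250 bases before and 50 after a start, 5′ to 3′ on the gene's strand. PLEC was left out of this search, and of the other members 4 had a window in that table. Capitals mark the letters GACCC or their reverse complement GGGTC, a short core reported for ZBTB7A. Read counts of a gene cannot be divided among its starts.
DSP, chr6:7541421-7541720, plus strand: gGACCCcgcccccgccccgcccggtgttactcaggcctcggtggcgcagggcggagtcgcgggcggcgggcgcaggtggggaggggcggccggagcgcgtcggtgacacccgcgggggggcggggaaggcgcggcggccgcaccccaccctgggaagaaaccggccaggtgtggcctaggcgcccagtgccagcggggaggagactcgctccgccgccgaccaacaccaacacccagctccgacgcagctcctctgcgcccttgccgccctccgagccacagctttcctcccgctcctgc
DST upstream start, chr6:56954781-56955080, minus strand: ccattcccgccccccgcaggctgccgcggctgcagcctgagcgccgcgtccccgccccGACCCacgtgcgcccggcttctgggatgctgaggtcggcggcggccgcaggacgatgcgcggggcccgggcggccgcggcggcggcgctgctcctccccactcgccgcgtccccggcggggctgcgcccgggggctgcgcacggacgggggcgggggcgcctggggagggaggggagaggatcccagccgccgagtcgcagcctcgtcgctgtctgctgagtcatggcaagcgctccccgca
DST middle start, chr6:56851856-56852155, minus strand: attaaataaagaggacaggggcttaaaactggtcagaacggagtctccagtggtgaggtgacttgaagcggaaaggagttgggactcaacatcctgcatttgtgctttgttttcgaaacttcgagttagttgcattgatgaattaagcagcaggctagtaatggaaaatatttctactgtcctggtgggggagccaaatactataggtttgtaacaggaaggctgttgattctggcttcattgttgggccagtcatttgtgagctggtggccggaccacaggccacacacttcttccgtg
DST downstream start, chr6:56642840-56643139, minus strand: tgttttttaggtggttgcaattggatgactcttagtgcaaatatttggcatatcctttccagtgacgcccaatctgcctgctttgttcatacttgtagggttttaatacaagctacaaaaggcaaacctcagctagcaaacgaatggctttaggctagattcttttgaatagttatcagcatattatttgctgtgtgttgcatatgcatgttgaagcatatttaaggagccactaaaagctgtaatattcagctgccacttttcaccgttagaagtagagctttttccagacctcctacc
The DSP window and the window at the upstream DST start are GC-rich (77.0% and 80.0%) and each holds the 5 letters 1 time, beginning 249 and 192 bases before the start. The other DST windows are at 46.3% and 39.3% GC and hold none (0). The window of KRT8, which was not called, holds the letters 2 times, and that of KRT5 holds none (0). The same letters, on either strand, occur in 47.6% of 35116 RefSeq windows of 300 bases, so their presence is common. The GC box letters GGGCGG or CCGCCC occur 8 times in the DSP window and 4 times in the upstream DST window (overlapping matches counted), against at least 1 time in 44.95% of all windows. None of the 4 windows holds TATAAA or TTTATA, which 11.5% of all windows do. A match of letters is a description of the sequence and says nothing of binding.

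The luminal keratin members were counted in every table, and the basal members KRT5 and KRT15 were at or near 0. Under siNTC, KRT8 had 734 and 732 reads, KRT18 had 653 and 632, and KRT19 had 132 and 133. KRT5 had 0 reads in all 4 tables, which allows up to 0.255 CPM in siNTC and 0.270 CPM in siZBTB7A (3 reads in each library). KRT15 had 0 and 1 reads in siNTC and 1 and 1 in siZBTB7A, too few for a fold. Of 9 basal markers, none (0) was abundant enough to test. They summed to 22 and 22 reads under siNTC and to 17 and 24 under siZBTB7A, with KRT5, KRT17 and DSG3 at 0. The basal keratin KRT14 had 9 and 11 reads, then 8 and 7, and the basal transcription factor gene TP63 had 1 read in all. All 12 luminal markers were tested, with 44938 and 46114 reads in siNTC and 43597 and 44904 in siZBTB7A. Of the 2 basal members, no more than 1 read was found in any table.

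**Figure D1:**
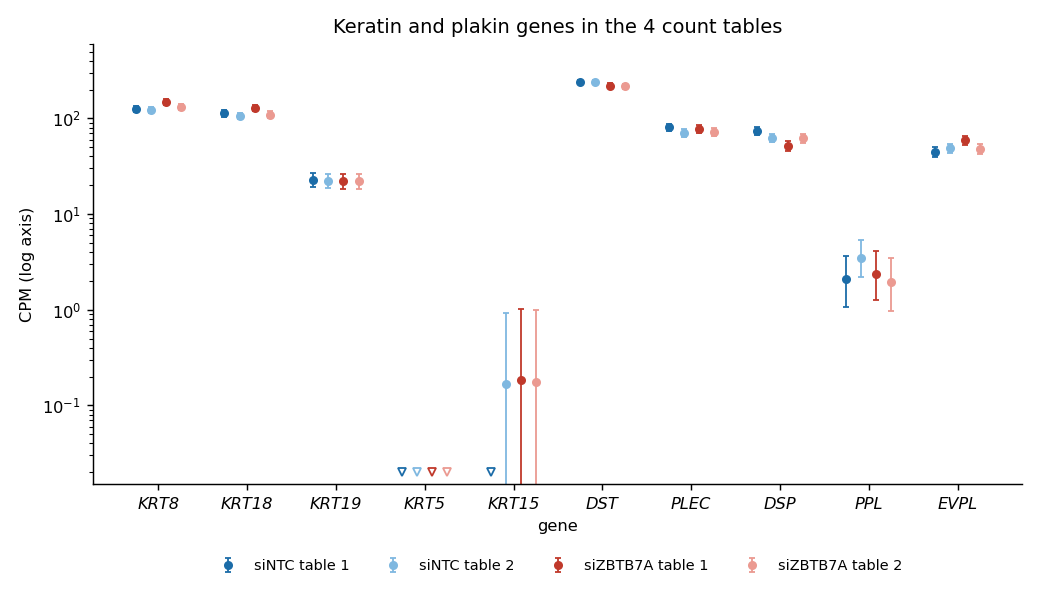
Level of each keratin and plakin gene in CPM (log axis) in the 4 count tables; bars are exact 95% counting intervals and open triangles at the bottom mark 0 reads. DST lies at 217 to 242 CPM in the 4 tables, KRT8 and KRT18 between 106 and 147 CPM, and KRT5 has no reads.

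KRT8 and KRT18 made up most of the keratin reads. Of 55 protein-coding keratin genes, 40 had no read in any table, and KRT8 and KRT18 took 87.9% of all keratin reads in siNTC and 88.6% in siZBTB7A. After KRT19, the next keratin was KRT10, a suprabasal skin keratin, with 27 and 39 reads in siNTC and 48 and 31 in siZBTB7A. KRT20 of intestinal and urothelial cells was at 0, and KRT7 of simple ductal epithelium had 2 reads in all. KRT8, KRT18, KRT19 and KRT10 were the keratin genes with enough reads to be tested.

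Levels of different genes can be compared only per length, here CPM per kilobase of annotated exon. In siNTC the order was KRT18 at 33.9 (32.1 to 35.8), KRT8 at 18.1 (17.2 to 19.1), KRT19 at 9.64 (8.51 to 10.9), DSP at 6.74 (6.28 to 7.22), EVPL at 6.22 (5.71 to 6.77), DST at 5.67 (5.46 to 5.89), PLEC at 4.45 (4.16 to 4.75) and PPL at 0.365 (0.251 to 0.512). The intervals of DSP and EVPL overlap, as do those of EVPL and DST, so these neighbours are not separated. The order depends on the length used. By the longest annotated transcript, KRT18 stood at 52.3, KRT8 at 43.5, KRT19 at 16.2, DST at 10.7, EVPL at 7.07, DSP at 6.94, PLEC at 4.96 and PPL at 0.450. KRT8 and DST are most affected, with 6881 exon bases against a longest transcript of 2862 for KRT8 and 42341 against 22431 for DST. Among 19596 protein-coding genes ranked by CPM per kilobase of exon in siNTC, KRT18 was number 839, KRT8 number 1803, KRT19 number 3491 and DST number 5352. The protein-coding genes nearest to KRT18 in this level over the 2 libraries were RPS29 and POMP. Nearest to KRT8 were SYNE4 and TRMT10C, and nearest to DST were ENOX2 and TADA2A, each within 0.014 on the log2 scale.

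Reads that map to several places are not counted in this table layout, and KRT8 and KRT18 have many processed copies in the genome: 50 KRT8 and 67 KRT18 pseudogenes are named among the identifiers. Multi-mapping reads were 24.5% and 24.4% of the siNTC tables and 22.3% and 22.2% of the siZBTB7A tables. How many of them came from keratin genes, and their part in the folds of KRT8 and KRT18, was not tested. The pseudogenes themselves had few uniquely mapped reads, 90 and 83 summed over the KRT8 copies in the siNTC and siZBTB7A libraries and 108 and 92 over the KRT18 copies. The best counted was KRT18P31, with 37 and 29 reads in siNTC and 27 and 29 in siZBTB7A, at a log2 fold of -0.15 (SE 0.26) that did not pass the test (adjusted p = 0.821).

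The ratio of the 2 luminal partners differed between the libraries by less than its counting interval. KRT8 had 1.14 reads per KRT18 read in siNTC (1.06 to 1.23) and 1.16 in siZBTB7A (1.08 to 1.251). The 4 tables ranged from 1.124 to 1.19. The intervals of the 2 libraries overlap over most of their length, so no shift of one partner against the other was detectable at this depth. Per kilobase of exon the ratio was 0.534 in siNTC (0.495 to 0.575) and 0.543 in siZBTB7A (0.505 to 0.585). The ratio depends on the length chosen, at 0.832 and 0.848 by the longest transcripts. For KRT19, the reads per KRT18 read were 0.206 (0.180 to 0.236) in siNTC and 0.185 (0.161 to 0.212) in siZBTB7A.

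KRT8 and KRT18 are neighbours in opposite orientation, and some of their annotated exons overlap. In GENCODE 29, 525 exon bases belong to both genes on opposite strands, 7.63% of the exon bases of KRT8 and 16.3% of those of KRT18. On the main strand of the stranded kit, KRT18 had 653 and 632 reads in siNTC and 709 and 620 in siZBTB7A. Without regard to strand it kept 372 and 352, then 376 and 325, which is 56.3% and 52.7% of its stranded reads in the 2 libraries. How much of this drop lies in the exon bases shared with KRT8 was not tested. KRT8 lost almost nothing without strand, with 99.9% and 99.1%. In the opposite direction, 197 and 181 reads in siNTC and 240 and 205 in siZBTB7A lay over KRT8 exons on the other strand, the strand on which KRT18 is transcribed. In the summed libraries, no other tested member had more than 16.7 opposite-strand reads per 100 main-strand reads, the value of PPL in siZBTB7A, which rests on 4 reads. Stranded counts are therefore required to read KRT18 in these data, and all values given here use them unless stated.

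**Figure D2:**
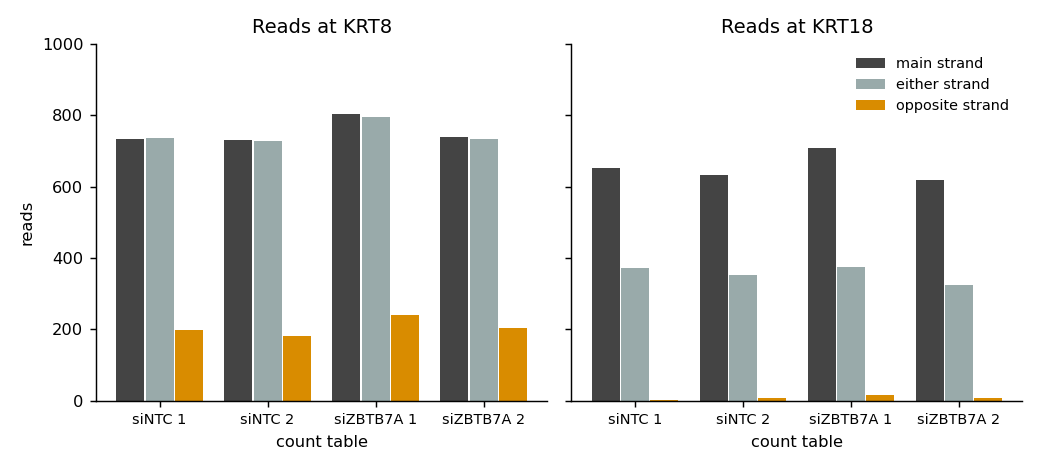
Reads at KRT8 (left) and KRT18 (right) in the 4 tables (vertical axis, reads), counted on the main strand, on either strand, or on the opposite strand. KRT18 falls from 653 to 372 reads in the first siNTC table when strand is ignored, and the opposite-strand reads sit at KRT8 (181 to 240).

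In the comparison of the siZBTB7A library with the siNTC library, 2 of the 8 tested members passed the test and both were lower: DSP and DST. None (0) was higher by edgeR, and DESeq2 called 0 of the 6 members to which it gave an adjusted p. At an unadjusted p under 0.05, 3 were higher and 2 lower by edgeR. The share of all tested genes under that unadjusted threshold was not counted, so nothing is read from those counts. Over all 12848 genes tested, 4.97% were called, 2.25% as higher (289) and 2.72% as lower (350). With a correction for transcript GC content and length the split over all genes was 215 higher and 166 lower, and neither member passed. The 8 tested members had a median log2 fold of -0.020 and the whole set of tested genes 0.0008, with 3 members above a fold of 1 and 5 below. In 4 of the 8 the tables of the groups did not overlap in CPM (KRT8 higher, DST, DSP and KRT19 lower), against 46.9% of all tested genes (23.5% higher and 23.4% lower), so this count is near the background.

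The number of members called depended on the fit. The same 2 members were called with DESeq2 size factors (5.06% of all tested genes called), a low-count filter at a mean of 1 CPM (4.71%), strand ignored (4.91%), only protein-coding genes (5.12%), the replicate block (5.09%) and an exact binomial test of summed tables (5.16%). Limma-voom called DST alone (4.21%), and the fit with no low-count filter called DSP alone (2.01%). DESeq2 (2.29%) and the GC and length correction (2.97%) called neither. Leaving out 1 table gave 0 members without siNTC replicate 1 (2.81%), DSP alone without siNTC replicate 2 (2.68%) and 0 without siZBTB7A replicate 1 (2.60%). Without siZBTB7A replicate 2 (2.29%) it gave 4, of which DSP was lower and KRT8, KRT18 and EVPL were higher.

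DSP, the desmosomal linker, was the lower of the 2 called members. It had 425 and 375 reads in siNTC and 282 and 350 in siZBTB7A, or 73.5 and 62.7 CPM against 51.6 and 61.9 CPM. The first siNTC table was the highest and the first siZBTB7A table the lowest, and the second tables of the 2 groups were close to each other. The fold was 0.836 (0.752 to 0.929), a log2 fold of -0.26 (SE 0.08, edgeR adjusted p = 0.0349). Its size rests on the first tables: without the first siNTC table the log2 fold was -0.14 (adjusted p = 0.511) and without the first siZBTB7A table it was -0.13 (adjusted p = 0.555). With the GC and length correction it was -0.21 (adjusted p = 0.145).

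DST, which encodes the dystonin isoforms including the hemidesmosomal antigen BPAG1, was the best counted member. It had 1399 and 1427 reads in siNTC and 1202 and 1228 in siZBTB7A, or 242 and 239 CPM against 220 and 217 CPM. Both siZBTB7A tables lay below both siNTC tables. The fold was 0.910 (0.862 to 0.961), a log2 fold of -0.14 (SE 0.04, edgeR adjusted p = 0.0203). Leaving out any 1 table gave log2 folds from -0.15 to -0.13, none past the test. With the GC and length correction the log2 fold was 0.015 (adjusted p = 0.905), so the direction was not kept.

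KRT8 and KRT18, the luminal filament pair, did not pass the test. KRT8 was at 127 and 122 CPM in siNTC and at 147 and 131 CPM in siZBTB7A, a fold of 1.11 (1.04 to 1.198, adjusted p = 0.0597). KRT18 was at 113 and 106 CPM in siNTC and at 130 and 110 CPM in siZBTB7A, a fold of 1.09 (1.01 to 1.18, adjusted p = 0.194). For KRT8 the groups did not overlap, and for KRT18 they did. In both genes the first siZBTB7A table was above the other 3. For KRT18 the intervals of the 2 siZBTB7A tables, 120 to 140 CPM and 101.2 to 119 CPM, did not overlap.

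EVPL, a plakin of the desmosome and cornified envelope, did not pass either. It was at 44.9 and 48.5 CPM in siNTC and at 59.4 and 48.3 CPM in siZBTB7A, a fold of 1.15 (1.02 to 1.29, adjusted p = 0.181). The first siZBTB7A table alone lay above the rest. Without the second siZBTB7A table KRT8, KRT18 and EVPL passed as higher, at log2 folds of 0.24, 0.25 and 0.35 (adjusted p = 0.0140, 0.0194 and 0.0380). Without the first they were at 0.070, 0.0070 and 0.048 (adjusted p = 0.693, 0.981 and 0.896). In each of the 3, the call rests on the first siZBTB7A table.

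The folds of KRT19, PLEC and PPL had intervals that include no difference. KRT19 was at 22.8 and 22.2 CPM in siNTC and at 22.1 CPM in both siZBTB7A tables, a fold of 0.982 (0.823 to 1.17). PLEC was at 80.7 and 70.7 CPM against 77.7 and 72.2 CPM, a fold of 0.990 (0.9001 to 1.09), with the groups interleaved. The interval of PLEC leaves room for a change of about the size measured in DST. PPL had 12 and 21 reads, then 13 and 11, and its fold of 0.770 (0.435 to 1.34) is too poorly counted to place.

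**Figure D3:**
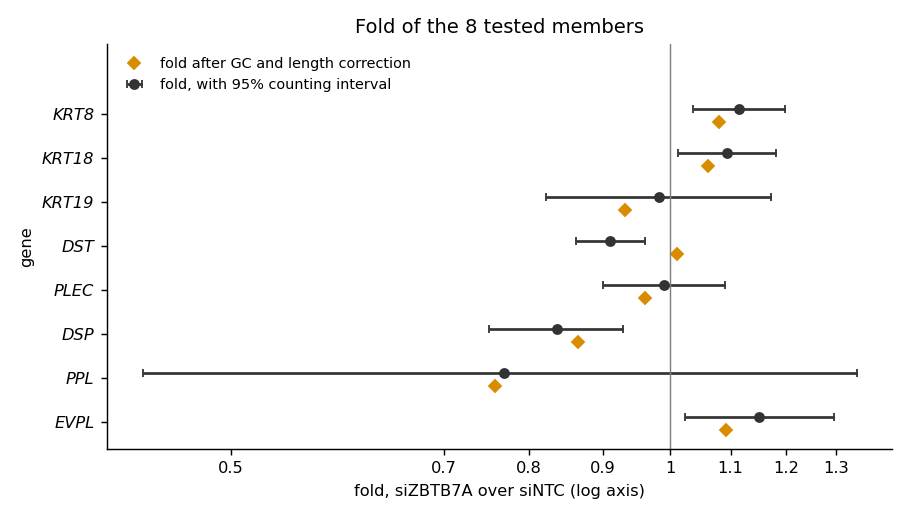
Fold of the siZBTB7A library over the siNTC library (log axis) for the 8 tested members; circles with bars are folds with exact 95% counting intervals, diamonds the folds after correction for GC content and length. DSP lies at 0.836 and DST at 0.910 before correction, and DST moves to 1.01 after it.

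Fold differed with transcript length and GC content over all tested genes, which bears on members as long as DST and PLEC. The median log2 fold was 0.034 among 2346 tested genes whose longest transcript is under 2000 bases, and -0.086 among 1048 genes of 8000 to 16000 bases. Of the 67 tested genes of 16000 bases or more, 10 were called lower and 0 higher, with a median of -0.080. GC content mattered within a length class. Of the genes of 8000 to 16000 bases, those under 45% GC had a median of -0.12 (616 genes) and those over 55% GC a median of 0.031 (108 genes). Other features of the libraries also differed: reads at no annotated exon took 20.6% of the siNTC reads and 23.1% of the siZBTB7A reads, and mitochondrial genes 17.1% against 20.2% of gene reads. With mitochondrial genes left out, DSP and DST were again the members called (4.97% of all tested genes called), at log2 folds of -0.26 and -0.14. The part of the reads outside exons in the folds was not tested.

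The members were then set in their own classes of length and GC content. DST (22431 bases, 41.3% GC) at a log2 fold of -0.14 lay between the quartiles, -0.24 and -0.016, of the 39 tested genes of at least 16000 bases and under 45% GC. DSP (9796 bases, 47.9% GC) at -0.26 (SE 0.08) lay below the lower quartile, -0.16, of the 324 genes of 8000 to 16000 bases and 45 to 55% GC. PLEC (15249 bases, 67.0% GC) at -0.014 lay between the quartiles, -0.054 and 0.15, of the 108 genes of that length over 55% GC. KRT8 (2862 bases, 56.2% GC) at 0.16 and KRT18 (2088 bases, 55.7% GC) at 0.13 lay between the median, 0.062, and the upper quartile, 0.19, of 1594 genes of 2000 to 4000 bases over 55% GC. EVPL (6614 bases, 65.0% GC) at 0.20 (SE 0.09) lay above the upper quartile, 0.18, of 984 genes of 4000 to 8000 bases over 55% GC. That distance is smaller than the SE of EVPL. PPL (6238 bases, 59.5% GC) at -0.37 (SE 0.38) lay below the lower quartile of the same class, -0.056. KRT19 (1390 bases, 61.8% GC) at -0.026 lay between the quartiles, -0.067 and 0.17, of 985 genes under 2000 bases and over 55% GC.

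**Figure D4:**
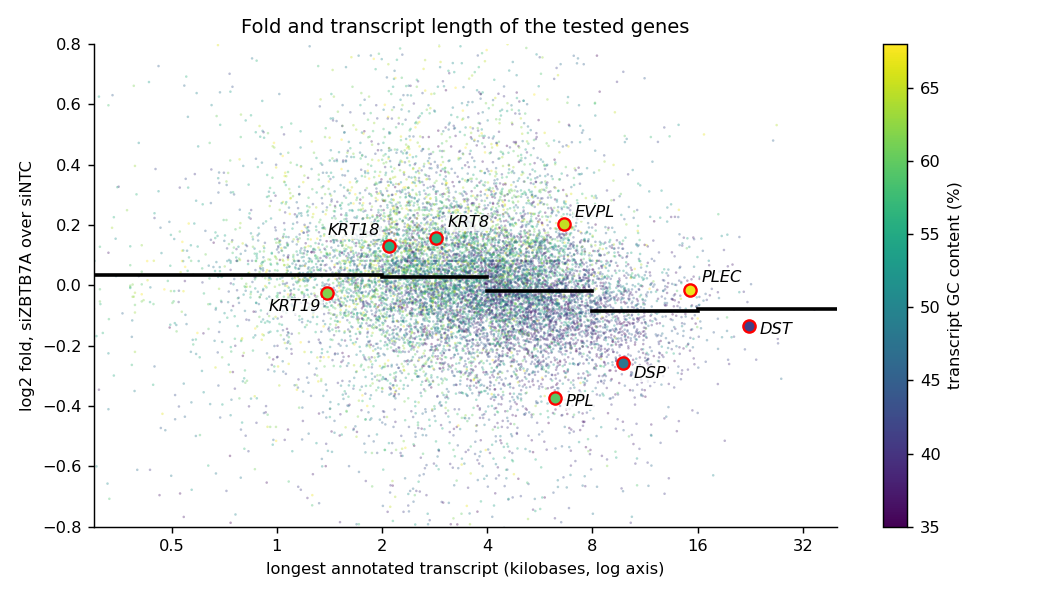
Log2 fold of the siZBTB7A library over the siNTC library (vertical axis) against the longest annotated transcript in kilobases (log axis) for the tested genes, coloured by GC content; black lines are medians of length classes, red rings the 8 tested members, and 204 genes lie outside the plotted range. The class medians run from 0.034 for the shortest class to -0.086 for 8000 to 16000 bases, and DST and DSP lie on the long, lower side.

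The members were also set beside the other linker and junction genes. Of 60 genes in 5 lists (plakins, desmosome, hemidesmosome, other intermediate filaments, other cytoskeletal linkers), 45 were tested, 8 were lower and 0 higher by edgeR, beside 12 lower and 3 higher at an unadjusted p under 0.05. Over all tested genes 2.72% were called lower and 2.25% higher by edgeR. The share of all tested genes at an unadjusted p under 0.05 was not counted. Limma-voom called 6 lower and DESeq2 0, and 2 stayed lower with the GC and length correction. The median log2 fold of the 45 was -0.076, against 0.0008 over all tested genes, which include many shorter transcripts. With the correction the medians of the single lists lay between -0.104 (desmosome) and -0.024 (other cytoskeletal linkers). The lists include DST and DSP themselves.

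All 7 plakin genes were tested, and 3 were lower: DSP, DST and MACF1. The median log2 fold of the 7 was -0.14. With the GC and length correction that median was -0.058 and none (0) of the 7 was called. MACF1, a spectraplakin that links microtubules to actin and the closest relative of DST, had 1482 and 1504 reads in siNTC and 1238 and 1326 in siZBTB7A. Its fold was 0.909 (0.862 to 0.958, adjusted p = 0.0134), and -0.012 on the log2 scale with the correction (adjusted p = 0.922). DST stood at 0.946 reads per MACF1 read in siNTC (0.899 to 0.997) and at 0.948 in siZBTB7A (0.896 to 1.002), and these intervals overlap. EPPK1, which encodes the plakin-repeat protein epiplakin, had 92 and 109 reads, then 86 and 90, and did not pass (fold 0.927, 0.753 to 1.14).

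Among 11 tested desmosome genes, 2 were lower, DSP and PKP1. PKP1, a plakophilin that binds DSP at the plaque, had 496 and 532 reads in siNTC and 395 and 430 in siZBTB7A. All of its siZBTB7A values lay below its siNTC values, at a fold of 0.849 (0.774 to 0.932, adjusted p = 0.0177). It kept its direction and its call with the correction (log2 fold -0.25, adjusted p = 0.0153). The call was lost without the second siNTC table (adjusted p = 0.179), without the first siZBTB7A table (0.211) and with DESeq2 (0.435). The desmosomal cadherin genes DSG2 and DSC2 had folds of 0.895 (0.816 to 0.983) and 0.970 (0.896 to 1.05), the plaque genes JUP and PKP3 of 1.03 (0.939 to 1.13) and 1.03 (0.963 to 1.09), and none of these 4 passed. DSG3 and DSG4, cadherins of stratified epithelium, had 0 reads.

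Of 6 tested hemidesmosome genes, DST alone was called, with a list median of -0.095. The integrin gene ITGA6 (722 and 821 reads, then 684 and 671) and the laminin gene LAMA3 (843 and 895, then 751 and 797) had folds of 0.929 (0.863 to 1.0003) and 0.943 (0.880 to 1.01) and did not pass. ITGB4, the integrin partner that binds plectin in hemidesmosomes, had between 4 and 11 reads per table and COL17A1 between 1 and 5. The list thus held both well counted genes, among them DST and PLEC, and genes near 0.

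Of 16 tested linkers outside the plakins, 3 were lower. SYNE2, the giant nesprin that ties the nuclear envelope to the cytoskeleton, stood at a fold of 0.863 (0.798 to 0.934, adjusted p = 0.0105). The spectrin gene SPTBN1 stood at 0.928 (0.891 to 0.967, adjusted p = 0.0112) and CSNK1A1, a casein kinase recruited to keratin filaments by FAM83H, at 0.890 (0.839 to 0.944, adjusted p = 0.00469). With the correction none of the 3 passed, at log2 folds of -0.072, -0.064 and -0.10.

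**Figure D5:**
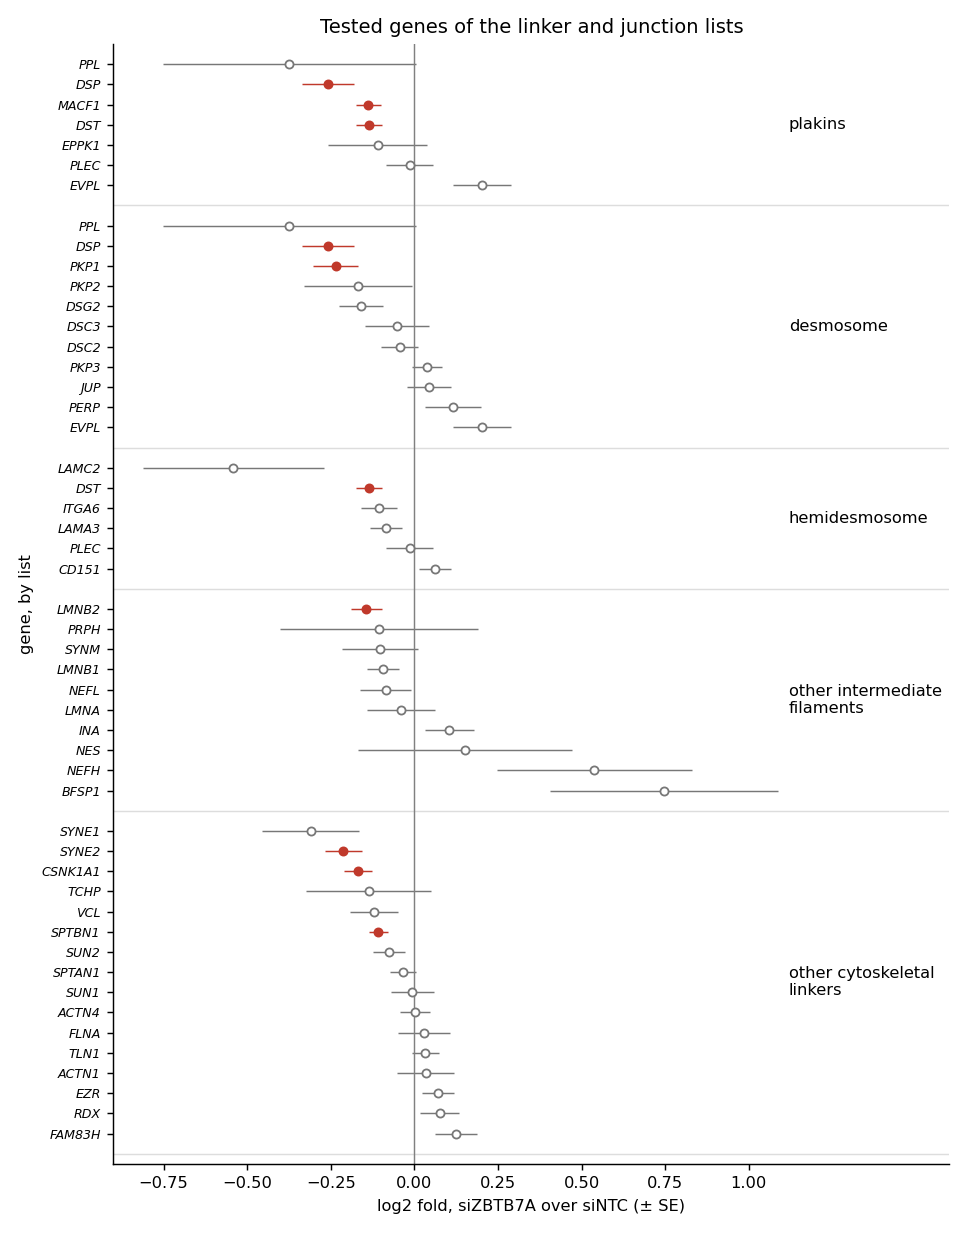
Log2 fold of the siZBTB7A library over the siNTC library with its SE (horizontal axis) for the tested genes of 5 lists (rows, a gene in 2 lists is shown in both); filled red points passed the test. All 8 called genes lie between -0.26 and -0.11.

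Among the 12 luminal markers, which include KRT8 and KRT18, 4 were higher and 0 lower by edgeR, against 2.25% and 2.72% of all tested genes. By fold, 8 of the 12 lay above 1 and 4 below. Of those below, ACPP at 0.971 (0.950 to 0.993) and CDH1 at 0.937 (0.878 to 0.9998) did not pass by edgeR. Limma-voom called ACPP lower (adjusted p = 0.0326). The 4 called higher by edgeR were FOLH1 at a fold of 1.16, SLC45A3 at 1.16, HOXB13 at 1.08 and KLK2 at 1.02. They are genes of a cell-surface peptidase, a transporter, a homeobox factor and a kallikrein. With the correction FOLH1 and SLC45A3 passed, and HOXB13 and KLK2 did not. With DESeq2, FOLH1 passed (adjusted p = 0.00361), and HOXB13 (0.359) and KLK2 (0.477) did not. Of the markers of other cell types, 6 leukocyte markers summed to between 9 and 13 reads per table and 3 endothelial markers to between 2 and 5. The 5 fibroblast markers summed to 103 and 90 reads in siNTC and 74 and 85 in siZBTB7A, nearly all of LUM. The 5 neuroendocrine markers were all tested, with 548 and 568 reads in siNTC and 491 and 511 in siZBTB7A, and none (0) was called by edgeR. In bulk RNA, fewer cells of a type and less RNA per cell cannot be told apart.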

How the data were processed

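The authors deposited 1 table of raw read counts per gene for each sample, with no normalization, in the layout of STAR gene counts. Per the submitters' processing notes, STAR 2.4.2a and the build hg19 (GRCh37) were used; no source used here gives the annotation release. Main-strand counts exceeded those of the other strand by 24.9 to 25.5 times and were used. The 4 rows that name no gene (50.8% to 51.2% of reads) were left out. GENCODE 29, on another build, gave names for 55698 of 60308 identifiers, exon length, and the length and GC content of the longest transcript.

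EdgeR 4.0.16 (R 4.3.3) was fitted to all genes with TMM scaling, the filterByExpr filter and a robust quasi-likelihood test on group alone, then checked on simulated counts. Folds are of summed tables. Alternatives used DESeq2 1.42.0, limma 3.58.1 and a spline with 4 degrees of freedom each on GC content and length. Python 3.11.15, scipy 1.17.1 and matplotlib 3.10.9 served the rest. Named genes were the members, ZBTB7A, per list up to 4 called genes of smallest p and the 2 best counted, the 3 best counted keratin genes and pseudogenes, and 2 nearest in level to KRT8, KRT18 and DST; others named were chosen after their values were seen. Members and lists were chosen with earlier results of these data known. Of 115 list genes, 114 were matched, and 1 further gene is not reported here. No protein sequence was used here.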

Additional observations from a re-analysis of the deposited data

Results flagged for a closer look

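Reads on the strand opposite to KRT8 were not counted to KRT8 in any comparison of main-strand counts. Those over exon bases shared with KRT18 can be among the main-strand reads of KRT18. All reads opposite to KRT8 came to 40.02 CPM in the siZBTB7A library (36.4 to 43.9) and to 32.1 CPM in the siNTC library (28.97 to 35.5), from 445 and 378 reads. There were 240 and 205 such reads under siZBTB7A and 197 and 181 under siNTC. These intervals cover counting error only.

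No comparison uses the main-strand reads that fell outside annotated exons. They made up 23.1% of the siZBTB7A reads and 20.6% of the siNTC reads. The tables do not assign them to genes.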

How the results depend on the processing

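The count of 639 called genes stayed within 1.5 times under 9 of 15 alternatives. It was 89 with DESeq2, 381 with the GC and length correction and 303 to 373 with 1 table left out. The count of called members, 2, became 1 with limma-voom and with no filter on low counts, 0 with DESeq2 and with the GC and length correction, and 0 to 4 with 1 table left out. Fewer reads enter when a table is left out, and DESeq2 gave an adjusted p to 3881 genes only. DSP and DST were among those genes, at DESeq2 adjusted p = 0.539 and 0.460. What caused the changes in these counts was not tested. With the replicate block 654 genes were called and no member's call changed. Over 5461 genes, tables sharing a number had deviations with a correlation of -0.015, so the labels' numbers were not taken as pairs. The depth leaves PPL, KRT5 and KRT15 unresolved.

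Among 33 named genes the log2 fold changed sign in 14 cases, none of which passed the test. With the GC and length correction CD151 stood at -0.029, DSC2 at 0.074, DST at 0.015 and PKP3 at -0.11. With 1 table left out, CHGA ranged from -0.11 to 0.082, KRT10 from -0.032 to 0.64, KRT18P31 from -0.34 to 0.051, KRT8P46 from -0.47 to 0.058, PKP3 from -0.021 to 0.094, PLEC from -0.11 to 0.080, PPL from -0.70 to 0.057 and SPTAN1 from -0.086 to 0.017.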

Other observations

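Of 16 intermediate filament genes outside the keratins, 10 had enough reads to be tested, including neuronal and nuclear lamin genes. INA, which encodes alpha-internexin, had 364 and 394 reads under siNTC and 376 and 394 under siZBTB7A, and NEFL, the light neurofilament chain, had 386 and 363, then 337 and 330. Per kilobase of exon their siNTC levels were 19.9 and 14.7 CPM, and that of KRT19 was 9.64. SYNM, which encodes synemin, had 160 and 174 reads, then 141 and 153, at 3.63 CPM per kilobase in siNTC. VIM, the mesenchymal filament gene, had 1, 1, 3 and 1 reads, and DES of muscle had 0. Neither INA (fold 1.08, 0.971 to 1.19) nor NEFL (0.942, 0.848 to 1.05) passed the test. Of 10 tested genes in this list only LMNB2, which encodes lamin B2, was called, lower at 0.905 (0.849 to 0.965, edgeR adjusted p = 0.0460). It passed with the GC and length correction (edgeR adjusted p = 0.00251). It did not pass with DESeq2 (adjusted p = 0.587), limma-voom (0.0611) or edgeR with no filter on low counts (0.101). With 1 table left out its log2 fold ranged from -0.196 to -0.092.

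LUM, which encodes a matrix proteoglycan of fibroblasts, had 96 and 82 reads under siNTC and 67 and 77 under siZBTB7A. COL1A1 and COL3A1 had between 0 and 6 reads per table and COL1A2 had 0.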
